A study of Homo sapiens with 2 samples.

Results

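The mitochondrial ribosomal protein genes were taken as the protein-coding genes whose symbol begins with MRPL or MRPS followed by a digit, which gave 77 genes among 19694 protein-coding genes with a named transcript. Of these, 48 carry an MRPL symbol, for the large subunit, and 29 an MRPS symbol, for the small subunit. All 77 had a mean of at least 1 TPM over both libraries, as had 11346 protein-coding genes in all. TPM is a transcript abundance corrected for transcript length and scaled to a total of 1000000 within each library. MRPL23 fits the naming rule but had no transcript in the table, and it was not analysed here.

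The libraries are polyadenylated RNA of HepG2, a human liver cancer line, carrying a SAMD4B expression cassette that responds to doxycycline (Dox). SAMD4B is a human homologue of Smaug, an RNA-binding protein described in the fly. One library came from cells given 1 µg/ml Dox for 48 h to switch SAMD4B on, and the other from cells of the same kind cultured without Dox, and a treatment field that names Dox is attached to both samples, so the group was taken from the sample titles. With 1 library per group there is no spread between replicates, no p-value is given, and each difference is one between these libraries. No cells given Dox without the cassette were analysed here, so an effect of Dox and an effect of SAMD4B cannot be told apart. The labels do not say whether the cells are a clone or a pool.

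The mitochondrial ribosome translates the mRNAs of the mitochondrial genome, which encode core subunits of the respiratory chain and the ATP synthase. Its rRNAs are transcribed inside the organelle, whereas all of its proteins are encoded in the nucleus, made in the cytosol and imported. Some of these proteins have counterparts in bacterial ribosomes and others are found only in mitochondria. Doxycycline is a tetracycline, a class that binds the small subunit of the bacterial ribosome and also blocks translation in mitochondria. The values here are mRNA abundances and do not measure that block.

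The labels and the cell line were checked first. SAMD4B had 261 TPM in the library with Dox and 47.5 TPM in the library without, a log2 ratio of 2.44. The hepatocyte genes ALB, AFP, APOA1, TF, SERPINA1 and HNF4A were present in both libraries. All 6 were lower with Dox, with log2 ratios between -0.34 for HNF4A and APOA1 and -0.10 for SERPINA1, and HNF4A, a hepatocyte transcription factor, had 64.5 TPM with Dox and 81.8 TPM without. Relative to depth, their fragment ratios ran between 0.770 for APOA1 and 0.915 for ALB, each with a 95% counting interval below 1, and the part of this shift in the results below was not tested. TPM tables give no depth, but low values fell on steps from which 23570570 fragments with Dox and 18252166 without were estimated, a depth ratio of 1.29. The mitochondrial genome's own transcripts took 11.2% of all TPM with Dox and 10.2% without.

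Mitochondrial ribosomal protein mRNAs were slightly less abundant with Dox, and no member differed by as much as 1.5-fold. The 77 genes summed to 5698 TPM with Dox and 6136 TPM without, a ratio of 0.929. The median of their log2 ratios was -0.12, against 0.02 over all protein-coding genes compared, where each ratio is log2((TPM with Dox + 1)/(TPM without Dox + 1)). Lower values in the library with Dox were found for 58 of the 77 genes (75.3%), while 47.1% of all protein-coding genes compared were lower by any amount. The log2 ratios ran between -0.51 for MRPS7 and 0.30 for MRPL53, and their interquartile range was 0.22, against 0.36 over all protein-coding genes. At 1.5-fold, 0 members were higher and 0 lower, while 4.86% of all protein-coding genes were higher and 3.38% lower by that fold. At 1.2-fold, a limit added after the values were seen, 1 member was higher and 12 were lower, and 19.0% of all protein-coding genes were higher and 15.8% lower. The share of members at least 1.2-fold lower, 15.6%, was thus near the background, and 1.30% of members were at least 1.2-fold higher. This background includes genes of lower level than any member, since the lowest member had 12.3 TPM with Dox and 12.9 TPM without. Over the 7604 protein-coding genes with a mean of at least 10 TPM, the interquartile range was 0.32. Of these, 207 were at least 1.5-fold higher and 167 lower, and at 1.2-fold 15.6% were higher and 13.3% lower.

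Counting error was set beside these ratios through the estimated fragments. For each gene with at least 80% of its TPM on transcripts of at least 600 nt, the fragment ratio relative to depth was given an exact 95% Clopper-Pearson interval, which covers counting error only and no variation between cultures. This could be done for 67 members. Taken as a set, their fragment ratio was 0.904 (0.895 to 0.913). The interval lay below 1 for 39 members, above 1 for 2 and across 1 for 26. Over the 9363 protein-coding genes with such an estimate, 29.2% had an interval below 1 and 24.7% above 1. Of the 6377 with a mean of at least 10 TPM, 2118 lay below 1 and 1727 above. Of the 1454 among these with a main transcript under 1500 nt, 539 lay below 1 and 221 above. The set ratio of these 1454 genes was 0.946 (0.945 to 0.948). The members above 1 were MRPL53 and MRPS6.

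**Figure D1:**
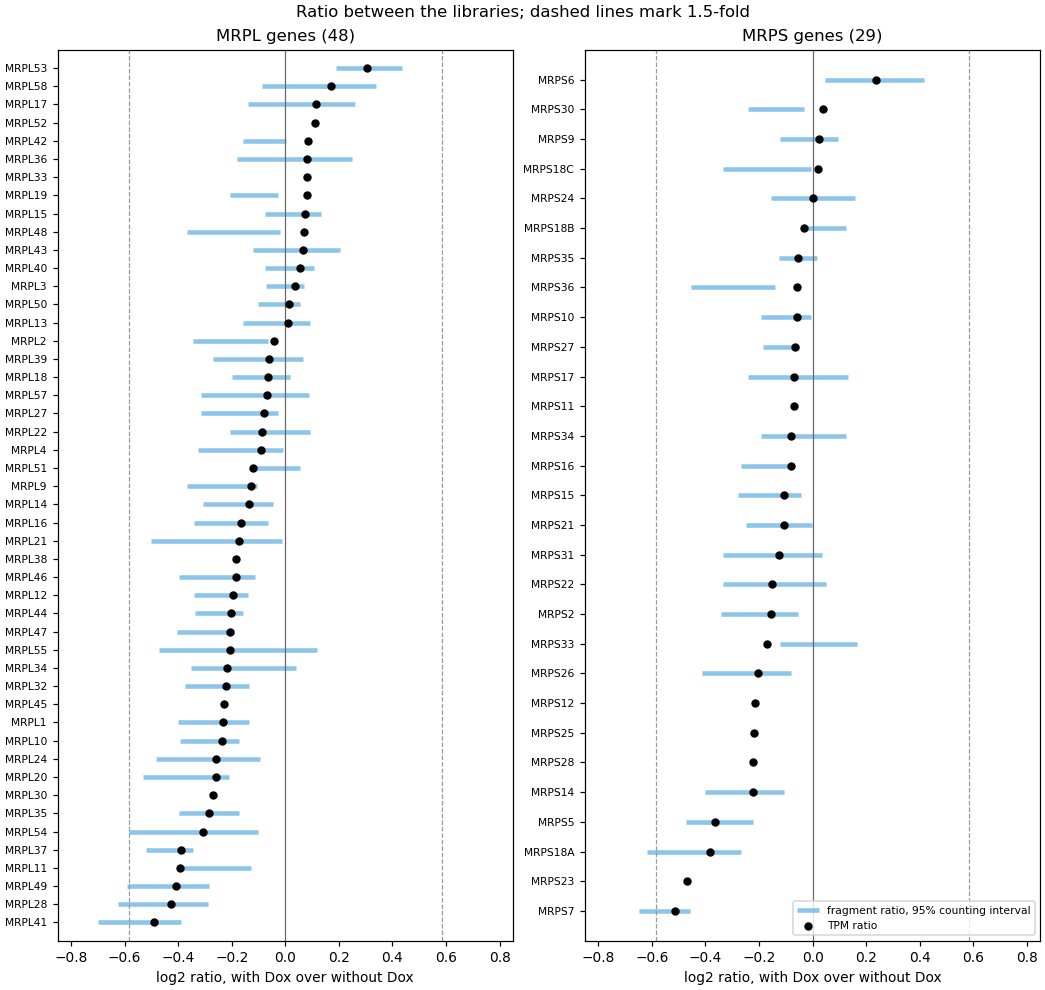
Log2 ratio of every MRPL gene (left) and MRPS gene (right), library with Dox over library without. Black points are log2((TPM + 1)/(TPM + 1)) and blue bars are 95% counting intervals of the fragment ratio, absent for 10 genes. The points run between -0.51 and 0.30, inside the dashed lines at 1.5-fold, and 58 of 77 lie left of 0. A point can lie outside its bar, because TPM also moves when fragments shift between long and short transcripts.

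The subunits were close to each other. MRPL genes summed to 3900 TPM with Dox and 4152 TPM without, a ratio of 0.939, and MRPS genes to 1798 TPM with Dox and 1984 TPM without, a ratio of 0.906. The median log2 ratio was -0.13 for MRPL genes and -0.11 for MRPS genes, a difference of -0.02. In fragments the sets had ratios of 0.901 (0.889 to 0.913) for MRPL and 0.909 (0.894 to 0.924) for MRPS, and these intervals overlap. MRPL genes were lower with Dox in 33 of 48 cases and MRPS genes in 25 of 29. On coding transcripts alone these counts were 35 and 22, so the difference in share lower depends on the measure. The interquartile range of the log2 ratios was wider for MRPL genes, 0.27, than for MRPS genes, 0.16. Their standard deviations were closer, 0.175 and 0.157. Counting MRPS18A and MRPS30, whose proteins sit in the large subunit despite their symbols, with the MRPL genes left both medians at the same values. This outcome was fixed, since MRPS18A lies below both medians and MRPS30 above both.

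**Figure D2:**
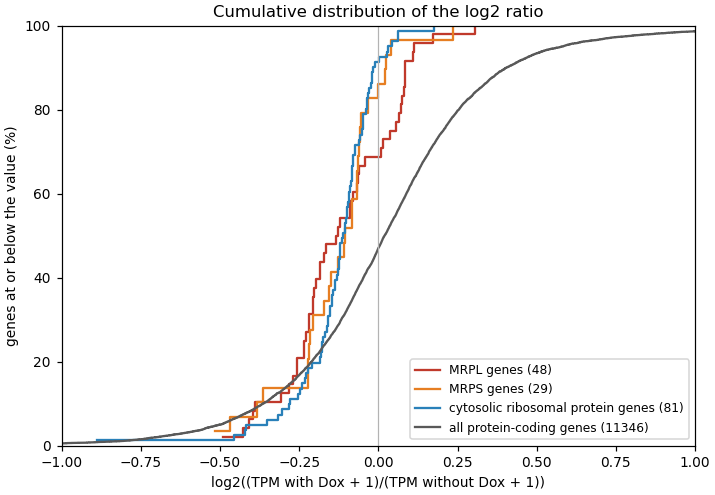
Cumulative share of genes (vertical axis, %) at or below each log2 ratio (horizontal axis) for MRPL genes, MRPS genes, cytosolic ribosomal protein genes and all 11346 protein-coding genes compared. At a log2 ratio of 0 the curve of all genes stands at 47.1%, and the curves of the MRPL, MRPS and cytosolic ribosomal protein genes stand above it. At 1.2-fold lower the MRPL and MRPS curves stand near that of all genes. Both of their tails end sooner, the lowest member being at -0.51 and the highest at 0.30.

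Because the members lay close together in their ratios, their promoters were read for shared letters. The windows of the lowest and the highest member of each subunit are shown, with that of MRPL20. Each is a 300-base window, 250 bases before to 50 bases after the annotated start, 5′ to 3′ on the gene's strand, from RefSeq on GRCh38.p14. Capitals mark matches on either strand to CGCANGCG (a core of the NRF1 site), CCGGAAG (a core bound by ETS factors such as GABPA) or AAGATGGC (a core of the YY1 site). MRPS7 (chr17:75261629-75261928, plus strand) has the lowest ratio, -0.51, and 1 YY1 match. MRPL41 (chr9:137551629-137551928, plus strand), the lowest of the large subunit at -0.49, has none of the letters searched. MRPS6 (chr21:34073328-34073627, plus strand), the highest of the small subunit at 0.24, has none either. MRPL53 (chr2:74472631-74472930, minus strand) has the highest ratio, 0.30, and 2 ETS matches. MRPL20 (chr1:1407244-1407543, minus strand) is shown as the 1 member holding all 3 motifs, and its log2 ratio was -0.26.
MRPS7: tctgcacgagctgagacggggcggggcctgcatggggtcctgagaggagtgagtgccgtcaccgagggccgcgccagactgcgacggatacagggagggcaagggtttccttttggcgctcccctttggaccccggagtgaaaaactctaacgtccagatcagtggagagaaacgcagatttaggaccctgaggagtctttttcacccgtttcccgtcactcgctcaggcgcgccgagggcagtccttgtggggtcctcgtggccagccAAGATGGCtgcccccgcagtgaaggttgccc
MRPL41: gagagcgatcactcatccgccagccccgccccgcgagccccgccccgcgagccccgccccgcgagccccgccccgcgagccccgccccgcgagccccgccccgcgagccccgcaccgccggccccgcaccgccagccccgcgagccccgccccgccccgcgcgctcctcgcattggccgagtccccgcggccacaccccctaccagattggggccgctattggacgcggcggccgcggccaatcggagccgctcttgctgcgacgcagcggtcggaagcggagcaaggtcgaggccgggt
MRPS6: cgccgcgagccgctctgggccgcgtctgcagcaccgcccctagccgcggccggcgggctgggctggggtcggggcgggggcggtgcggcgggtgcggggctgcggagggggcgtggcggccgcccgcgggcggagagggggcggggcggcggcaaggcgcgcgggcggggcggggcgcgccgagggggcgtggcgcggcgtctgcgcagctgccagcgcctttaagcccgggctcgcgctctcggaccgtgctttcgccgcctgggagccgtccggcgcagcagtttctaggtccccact
MRPL53: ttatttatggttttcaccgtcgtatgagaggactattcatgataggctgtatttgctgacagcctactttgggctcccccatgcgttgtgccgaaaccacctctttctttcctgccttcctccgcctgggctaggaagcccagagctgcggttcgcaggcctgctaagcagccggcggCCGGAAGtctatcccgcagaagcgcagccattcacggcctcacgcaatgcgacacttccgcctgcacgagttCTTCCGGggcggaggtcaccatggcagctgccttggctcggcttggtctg
MRPL20: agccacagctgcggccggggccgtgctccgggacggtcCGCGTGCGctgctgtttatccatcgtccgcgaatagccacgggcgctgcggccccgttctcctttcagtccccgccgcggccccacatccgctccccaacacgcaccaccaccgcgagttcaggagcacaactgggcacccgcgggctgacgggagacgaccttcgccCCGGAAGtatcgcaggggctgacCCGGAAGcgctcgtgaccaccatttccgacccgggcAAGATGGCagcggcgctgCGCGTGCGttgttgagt

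Of the 77 members, 69 had a RefSeq entry, with 85 windows in all, since 11 of them have several annotated starts. A gene was counted for a motif if any of its windows held it. YY1 letters were held by 21 of the 69 members (30.4%), against 4.66% of 15843 protein-coding genes and 7.01% of the 9212 compared genes with an entry. These letters contain ATG and the windows run 50 bases past the annotated start, so a match can include a start codon. How many matches do was not counted. ETS letters were held by 30 members (43.5%), against 16.5% of protein-coding genes and 23.8% of those compared. NRF1 letters were held by 15 members (21.7%), against 16.6% of protein-coding genes and 22.9% of those compared. In 8 members ETS and YY1 matches stood in the same window, and they did not overlap in any of these. Taken singly, the motifs split the members' log2 ratios little, while the 51 members with at least 1 of the 3 had a median of -0.09 and those with none -0.18. Over all compared genes with an entry the order was the other way, with medians of 0.01 with at least 1 motif and 0.02 with none. The difference within the members was not tested. For single motifs the median was -0.12 for members with YY1 letters and -0.12 for those without, -0.11 with ETS letters and -0.13 without, and -0.14 with NRF1 letters and -0.11 without. A match is a description of letters and not a shown binding site.

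MRPS7 (ENSG00000125445, chromosome 17, 75261674 to 75266373, GRCh38) encodes a small subunit protein with a bacterial counterpart that binds the rRNA of the subunit's head. It had 86.7 TPM with Dox and 124 TPM without, a log2 ratio of -0.51, and a fragment ratio of 0.682 (0.638 to 0.729). MRPS23, a small subunit protein with no bacterial counterpart, had 80.6 TPM with Dox and 112 TPM without (log2 ratio -0.47). Its reads fall mostly on a transcript of under 600 nt, so no fragment interval is given. MRPS5, a counterpart of bacterial S5 at the mRNA entry side, had 47.6 TPM with Dox and 61.6 TPM without (log2 ratio -0.37). MRPS14 had 33.2 TPM with Dox and 38.9 TPM without (log2 ratio -0.22). MRPS7, MRPS23 and MRPS5 were the small subunit proteins furthest below the no-Dox library, and MRPS14, the fifth lowest MRPS gene, lay near the lower quartile.

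At the upper end of the MRPS genes, MRPS6 (ENSG00000243927, chromosome 21, 34073224 to 34143034) had 45.8 TPM with Dox and 38.8 TPM without, a log2 ratio of 0.24, and a fragment ratio of 1.17 (1.03 to 1.33). MRPS6 encodes a counterpart of bacterial S6, on the platform of the small subunit. MRPS9 had 71.6 TPM with Dox and 70.4 TPM without (log2 ratio 0.02), and its fragment interval, 0.920 to 1.07, spans 1. MRPS24 had 100.3 TPM with Dox and 100.4 TPM without. Small subunit proteins were also listed by whether they have a bacterial counterpart, leaving out MRPS18B, MRPS36 and subunits under other symbols. In TPM, all 9 listed without a counterpart were lower with Dox, with a median log2 ratio of -0.15. Of the 16 listed with a counterpart, 13 were lower, with a median of -0.09. MRPS6, MRPS9 and MRPS18C were the 3 with a counterpart that were higher in TPM. In fragments the order was the other way. The 7 without a counterpart that could be estimated had a set ratio of 0.939 (0.913 to 0.966). The 13 with a counterpart had 0.881 (0.860 to 0.901), so this contrast depends on the measure.

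MRPS18A, MRPS18B and MRPS18C are paralogues related to bacterial S18, and they differed from each other. MRPS18A, whose protein lies in the large subunit, had 40.9 TPM with Dox and 53.6 TPM without (log2 ratio -0.38, fragment ratio 0.736 with an interval of 0.652 to 0.830). MRPS18B had 133 TPM with Dox and 136 TPM without (log2 ratio -0.03), with a fragment interval of 0.974 to 1.09. On coding transcripts alone its log2 ratio was 0.10, so its direction depends on the measure. Its alternate-locus transcripts, which the fragment estimate leaves out, had 4.87 TPM with Dox and 15.0 TPM without. MRPS18C had 44.2 TPM with Dox and 43.6 TPM without (log2 ratio 0.02), with a fragment interval of 0.794 to 0.997. The interval of MRPS18A lay wholly below that of MRPS18B, while those of MRPS18A and MRPS18C overlapped. MRPS30, the other large subunit protein under an MRPS symbol, had 51.8 TPM with Dox and 50.4 TPM without (log2 ratio 0.04), but its fragment interval, 0.846 to 0.977, lay below 1, so its direction depends on the measure. MRPS36, since recognised as a component of the oxoglutarate dehydrogenase complex and renamed KGD4, had 43.3 TPM with Dox and 45.1 TPM without (log2 ratio -0.06). Its fragment ratio was lower, 0.815 (0.731 to 0.908), and on coding transcripts alone its log2 ratio was -0.25.

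In the large subunit, the lowest ratio was that of MRPL41 (ENSG00000182154, chromosome 9, 137551199 to 137552555), a protein with no bacterial counterpart. It had 36.1 TPM with Dox and 51.1 TPM without, a log2 ratio of -0.49, and a fragment ratio of 0.686 (0.616 to 0.764). MRPL28, a counterpart of bacterial L28, had 47.4 TPM with Dox and 64.1 TPM without (log2 ratio -0.43). MRPL49 and MRPL37 are specific to mitochondria. MRPL49 had 21.5 TPM with Dox and 28.9 TPM without (log2 ratio -0.41). MRPL37 had 93.7 TPM with Dox and 123 TPM without (log2 ratio -0.39). MRPL11, a counterpart of bacterial L11 near the site where translation factors bind, had 61.6 TPM with Dox and 81.3 TPM without (log2 ratio -0.39). The fragment intervals of all 5 lay below 1, that of MRPL11 being the nearest to it at 0.759 to 0.916. These 5 were picked by their TPM ratios, which rest on the same reads. The stalk protein MRPL12 had 123 TPM with Dox and 141 TPM without (log2 ratio -0.20, fragment interval 0.790 to 0.909). MRPL10, on which the stalk is anchored, had 53.0 TPM with Dox and 62.6 TPM without (log2 ratio -0.24, fragment interval 0.762 to 0.887). MRPL10, MRPL11 and MRPL12, which together form the stalk and its base, thus all had fragment intervals below 1.

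At the upper end of the MRPL genes stood MRPL53 (ENSG00000204822, chromosome 2, 74471958 to 74473322), with 90.2 TPM with Dox and 72.8 TPM without, a log2 ratio of 0.30 and a fragment ratio of 1.24 (1.14 to 1.35). It was the 1 member at least 1.2-fold higher. MRPL58, a peptidyl-tRNA hydrolase that rescues stalled mitochondrial ribosomes and is also built into the large subunit, had 44.3 TPM with Dox and 39.2 TPM without (log2 ratio 0.17), with a fragment interval of 0.941 to 1.27. MRPL17 had 27.2 TPM with Dox and 25.1 TPM without (log2 ratio 0.11). MRPL52 had 109 TPM with Dox and 101 TPM without (log2 ratio 0.11). MRPL42 had 143 TPM with Dox and 135 TPM without (log2 ratio 0.08), and its fragment interval, 0.897 to 1.00, does not lie above 1. Of these 5, only MRPL53 had a fragment interval above 1 (none could be had for MRPL52). The 29 large subunit genes listed with a bacterial counterpart had a median log2 ratio of -0.17 with 22 lower. The 20 listed without one, MRPS30 among them, had a median of -0.07 with 11 lower. MRPS18A was in neither list.

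Most members' levels lay within a narrow range. Between 25 and 150 TPM lay 71 members with Dox and 70 without. The highest level was 31.1 times the lowest with Dox and 27.9 times without. MRPL33, a counterpart of bacterial L33, was the most abundant, with 382 TPM with Dox and 360 TPM without. MRPL15 followed with 195 TPM with Dox and 185 TPM without, and MRPL3 with 158 TPM with Dox and 154 TPM without. MRPL51 had 147 TPM with Dox and 160 TPM without. MRPL45, which tethers the ribosome to the inner membrane where its products are inserted, had 133 TPM with Dox and 156 TPM without (log2 ratio -0.23). Ranked by the mean of both libraries, the 3 most abundant members were all slightly higher with Dox. In the library without Dox, MRPL51 and MRPL45 stood above MRPL3. For MRPL15 and MRPL3 the fragment intervals, 0.949 to 1.10 and 0.951 to 1.05, span 1.

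Among the MRPS genes the most abundant were MRPS18B, MRPS35, MRPS27, MRPS7 and MRPS33. MRPS35 had 122 TPM with Dox and 127 TPM without. MRPS27, a member of the pentatricopeptide repeat family, had 103 TPM with Dox and 108 TPM without. MRPS33 had 95.9 TPM with Dox and 108 TPM without. Only the last of these and MRPS7 had a log2 ratio under -0.1 (-0.17 for MRPS33), and the fragment interval of MRPS33, 0.920 to 1.12, spans 1. The least abundant member was MRPL57 with 12.3 TPM with Dox and 12.9 TPM without, and the least abundant MRPS gene was MRPS17 with 20.1 TPM with Dox and 21.1 TPM without. Pearson's r between the libraries over the 77 genes was 0.98 on the log2(TPM + 1) scale, a description across genes, which share both libraries and are not replicates.

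**Figure D3:**
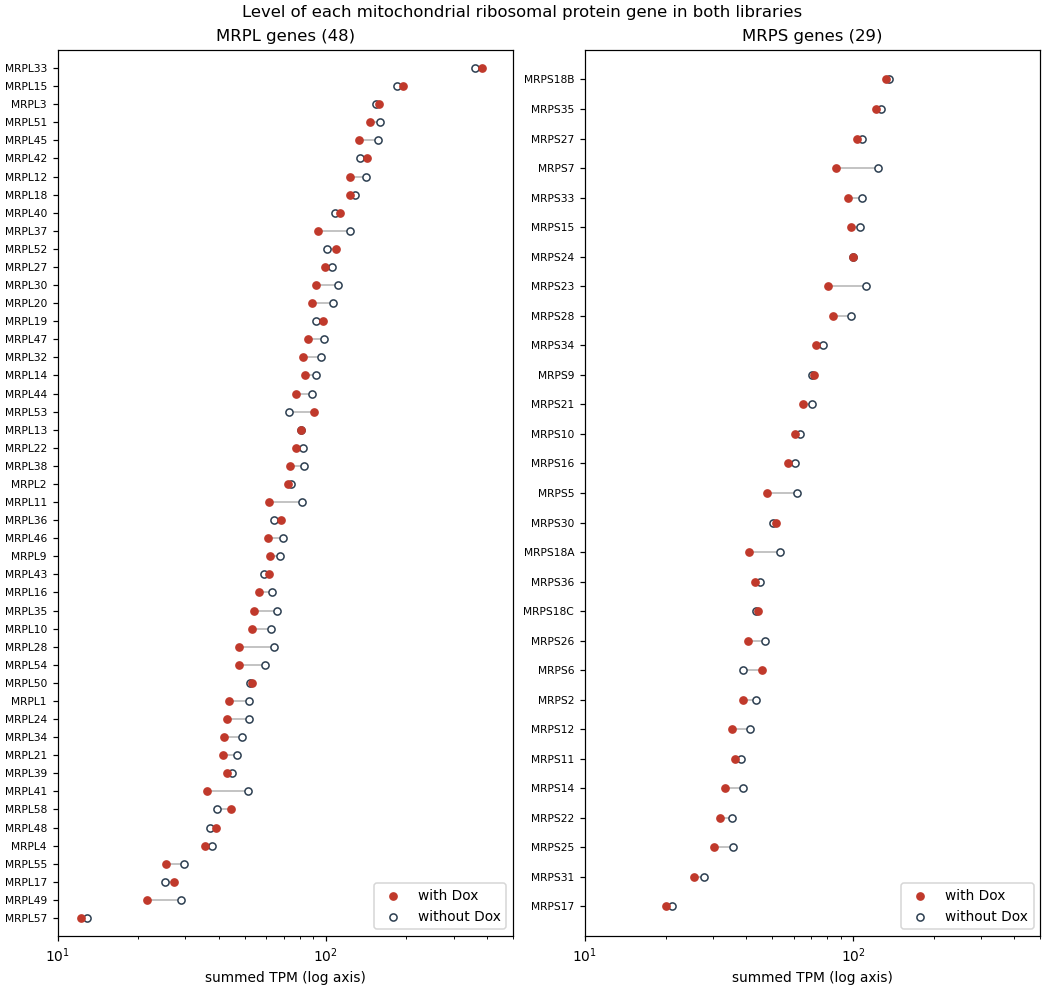
Summed TPM (log axis) of every MRPL gene (left) and MRPS gene (right), ordered by mean, with filled points for the library with Dox and open points for the library without. MRPL33 is highest at 382 and 360 TPM and MRPL57 lowest at 12.3 and 12.9 TPM, and most filled points lie a little left of their open partner.

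Transcript classes and isoforms were examined next, since a gene's summed TPM includes transcripts that encode no protein. Annotated coding transcripts held 91.0% of the members' TPM with Dox and 91.1% without, transcripts marked for nonsense-mediated decay 3.20% with Dox and 3.39% without, and retained-intron transcripts 3.29% with Dox and 3.10% without. In 71 members the most abundant transcript was a coding one. MRPS11, MRPS34, MRPL2 and MRPL17 were led by a retained-intron transcript. Counting only coding transcripts, 57 members were lower with Dox, and 7 members changed sign. Between TPM and fragments the sign differed for 11 members. For MRPS34 the coding transcripts had 30.2 TPM with Dox and 24.1 TPM without, while its retained-intron transcript ENST00000569585 had 42.9 TPM with Dox and 53.3 TPM without. For MRPS11 the coding transcripts had 7.43 TPM with Dox and 11.2 TPM without (log2 ratio -0.54), against -0.07 over all its transcripts.

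Among transcripts with a mean of at least 5 TPM, the largest shift of isoform share was in MRPL48, a large subunit protein. Its coding transcript ENST00000310614 had 17.9 TPM with Dox and 23.7 TPM without, which is 45.9% of the gene with Dox and 64.0% without. Its transcript ENST00000544819, marked for nonsense-mediated decay, had 9.62 TPM with Dox and 2.64 TPM without, 24.7% of the gene with Dox and 7.12% without. The fragment ratio was 0.733 (0.639 to 0.841) for the coding transcript and 3.60 (2.11 to 6.48) for the decay transcript. The gene as a whole was at 38.9 TPM with Dox and 37.0 TPM without, so its transcripts differed in opposite directions. In fragments the gene's ratio was 0.875 (0.777 to 0.986), below 1, so its direction depends on the measure. In MRPL11 the longer coding transcript ENST00000310999 had 13.1 TPM with Dox and 4.98 TPM without, while ENST00000329819 had 20.9 TPM with Dox and 34.0 TPM without. Fragments common to several isoforms are divided among them by Salmon's model, and the counting intervals leave out the error of that division.

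Some members lie close to other genes. With a start site within 1000 bp on the opposite strand, 27 partner genes faced 26 members. These members had a median log2 ratio of -0.10, against -0.13 for the other members. Their partners had a median of -0.05, with 16 lower, while 47.1% of all protein-coding genes compared were lower. The values lay on the same side of 0 in 18 of the pairs. Most members and most partners were lower, so many pairs share a side without any link, and a link was not tested. MRPL47 (85.6 TPM with Dox and 98.9 TPM without) faces NDUFB5, a complex I subunit gene with 216 TPM with Dox and 252 TPM without, and both had a log2 ratio near -0.2. MRPL49 faces FAU, which encodes a cytosolic ribosomal protein fused to a ubiquitin-like one and had 733 TPM with Dox and 661 TPM without, the opposite direction. MRPL46 and MRPS11 face each other, and their pair was counted from each side. MRPL14 faces TMEM63B, the 1 partner at least 1.5-fold lower, with 18.6 TPM with Dox and 28.5 TPM without. Exons of 20 members are overlapped by those of an expressed gene on the opposite strand, and as the strand setting of the quantification is not given in the sources used here, reads there may be shared.

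The cytosolic ribosomal protein genes, the most alike group by function, had a similar median difference. Their median log2 ratio was -0.11, with 74 of 81 lower, while nuclear-encoded respiratory chain subunits had a median of -0.07, with 56 of 77 lower. These groups share short mRNAs. Among protein-coding genes with a mean of at least 10 TPM, the 1972 whose main transcript was under 1500 nt had a median of -0.04 with 57.6% lower, and the 5428 with a longer one had a median of 0.04 with 43.7% lower. Within the members the 53 under 1500 nt had a median of -0.13 and the 22 longer ones -0.07. Transcript length thus moved with the log2 ratio in the members and outside them, and its part in the members' shift was not tested.

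**Figure D4:**
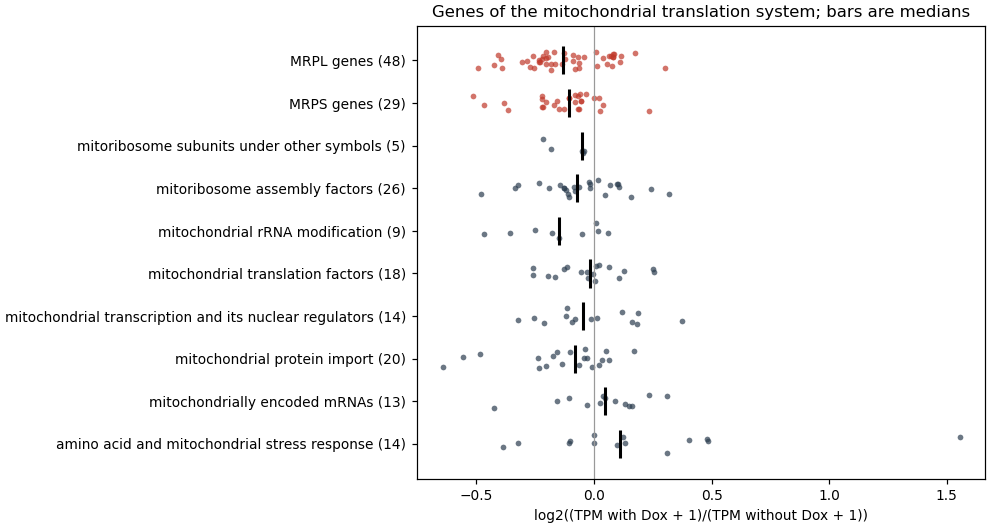
Log2((TPM with Dox + 1)/(TPM without Dox + 1)) of each gene (points) in groups of the mitochondrial translation system, with the group median as a bar and the number of genes in parentheses. MRPL and MRPS genes (red) have medians of -0.13 and -0.11, most other groups lie between -0.15 and 0.05, and the stress-response group has a median of 0.11 with GDF15 at 1.55.

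Other parts of the mitochondrial translation system were set beside the ribosomal proteins. The 5 ribosomal subunits under other symbols (DAP3, PTCD3, CHCHD1, AURKAIP1 and GADD45GIP1) were all lower with Dox, with a median log2 ratio of -0.05. AURKAIP1 was the lowest of them, with 60.8 TPM with Dox and 70.8 TPM without (log2 ratio -0.22). Of 9 enzymes that modify mitochondrial rRNA, 6 were lower, with a median of -0.15. NSUN4, a methyltransferase of the small subunit rRNA that also acts in assembly, had 14.4 TPM with Dox and 20.3 TPM without (log2 ratio -0.47). TFB1M, which dimethylates the small subunit rRNA, had 39.4 TPM with Dox and 50.8 TPM without (log2 ratio -0.36). MRM1, a ribose methyltransferase of the large subunit rRNA, had 6.27 TPM with Dox and 7.66 TPM without (log2 ratio -0.25). The fragment intervals of NSUN4 and TFB1M, 0.733 to 0.896 and 0.693 to 0.878, lay below 1.

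Of 26 assembly factors 17 were lower, with a median log2 ratio of -0.07. DDX28, an RNA helicase of large subunit assembly, had 4.07 TPM with Dox and 6.08 TPM without (log2 ratio -0.48), and MPV17L2 had 5.69 TPM with Dox and 7.44 TPM without (log2 ratio -0.34). RPUSD4, a pseudouridine synthase, had 39.9 TPM with Dox and 50.1 TPM without (log2 ratio -0.32), but its fragment interval, 0.903 to 1.06, spans 1. Of 18 translation factors 10 were lower, with a median of -0.02, so these soluble factors lay near the median of all genes. LRPPRC, which stabilises mitochondrial mRNAs, had 233 TPM with Dox and 195 TPM without (log2 ratio 0.26). TACO1, an activator of MT-CO1 translation, had 41.7 TPM with Dox and 50.2 TPM without (log2 ratio -0.26). PDF, the mitochondrial peptide deformylase, had 3.71 TPM with Dox and 4.64 TPM without (log2 ratio -0.26).

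Of 14 genes for mitochondrial transcription and its nuclear regulators, 8 were lower, with a median log2 ratio of -0.05. ESRRA, a nuclear receptor that drives mitochondrial genes, had 13.7 TPM with Dox and 10.3 TPM without (log2 ratio 0.37), though its fragment interval, 0.863 to 1.199, spans 1. NRF1, a transcription factor for nuclear genes of mitochondrial proteins, had 5.99 TPM with Dox and 7.74 TPM without (log2 ratio -0.32), with an interval of 0.718 to 1.02. PPRC1, a coactivator of the same genes, had 20.7 TPM with Dox and 24.95 TPM without (log2 ratio -0.26), with an interval of 0.906 to 1.05. The fragment intervals of all 3 regulators thus span 1. Of 20 protein import genes 15 were lower, with a median of -0.08. TOMM40, the channel of the outer membrane, had 42.5 TPM with Dox and 59.9 TPM without (log2 ratio -0.49, fragment interval 0.634 to 0.746). PMPCA, a subunit of the presequence peptidase, had 52.2 TPM with Dox and 77.3 TPM without (log2 ratio -0.56), and TIMM50, a receptor of the inner membrane, had 55.1 TPM with Dox and 86.7 TPM without (log2 ratio -0.64). TIMM50 was the 1 import gene at least 1.5-fold lower, but its fragment ratio was 0.888.

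The mRNAs that mitochondrial ribosomes translate were not lower as a group. The 13 mitochondrially encoded mRNAs had a median log2 ratio of 0.05, with 4 lower, and in fragments the 9 that could be estimated had a set ratio of 1.00. MT-CYB had 1921 TPM with Dox and 1547 TPM without (log2 ratio 0.31). MT-ND6, the mRNA of the other strand, had 140 TPM with Dox and 188 TPM without (log2 ratio -0.43). As the strand setting is not given, reads of the opposite strand may be counted in MT-ND6. MT-ATP8 was listed at 50987 TPM with Dox and 43419 TPM without, but its transcript is shorter than the length offset of the fragment estimate, so these levels are uncertain. The mitochondrial rRNAs had no transcript in the table, so the rRNA of the ribosome could not be set beside its proteins. Of 14 compared genes of the amino acid and mitochondrial stress response, 6 were lower and the median was 0.11. GDF15, a secreted stress cytokine, had 300 TPM with Dox and 101 TPM without (log2 ratio 1.55), DDIT3, a transcription factor of the response, 31.7 TPM with Dox and 22.3 TPM without (log2 ratio 0.49), and MTHFD2, a mitochondrial folate enzyme, 90.7 TPM with Dox and 64.6 TPM without (log2 ratio 0.48).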

How the data were processed

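The submitters' processing notes name Salmon, Trimmomatic and genome build GRCh38.p13, with versions and options not given in the sources used here. The authors deposited TPM values for 184844 transcripts in 1 table, which sum to 1000000 per library. Transcripts were named by identifier through GENCODE release 29 and, for copies on alternate loci, its table of gene symbols. The 171320 named transcripts held 95.9% of the TPM with Dox and 95.9% without, and 13472 could not be named. TPM was summed per gene with Python 3.11.15 and pandas 2.3.3, and log2 ratios used a pseudocount of 1 TPM, which understates differences of low genes. Genes with a mean of at least 1 TPM were compared. Low values of single-transcript genes lay within 0.1 of whole fragments in 86.4% of cases with Dox and 86.5% without, at a length offset of 300 nt, which gave the fragment estimates. Depth and offset were fitted to these same values. The procedure was tested on simulated counts with a fixed length offset and no division of fragments among isoforms. The check of the intervals used the true simulated counts. It therefore does not test the intervals on fragments estimated from Salmon's values.

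The members and the lists were chosen with earlier results of these data known. Named genes are the 5 highest and 5 lowest ratios and the 5 most abundant of each subunit, certain paralogues and structural cases, and the 3 largest absolute ratios of each other list. MRPL10, MRPS36, the isoform, promoter and neighbour examples were chosen after their values were seen.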

Additional observations from a re-analysis of the deposited data

How the results depend on the processing

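None of the medians, the difference between them or the summed ratio (relative to 1) changed direction under the alternatives run. Single members did, 7 with coding transcripts only and 11 in fragments. The median log2 ratio of all members, -0.12, was -0.14 with coding transcripts only, -0.10 after rescaling without the mitochondrial genome, -0.14 when centred on all protein-coding genes and -0.17 in fragments. The MRPL median, -0.13, was -0.16 with coding transcripts only, -0.15 when centred and -0.18 in fragments. The MRPS median, -0.11, was -0.14 in fragments and -0.083 with primary-assembly transcripts only, an alternative added after seeing the data. The summed TPM ratio, 0.929, was 0.940 after rescaling and 0.904 in fragments. The difference between the subunit medians stayed between -0.05 and -0.02 in all 11 alternatives, but several of these could not change it. Other minimum levels and the filter on main transcripts at 0 dropped no member, centring shifts both medians alike, and MRPS18A and MRPS30 lie on opposite sides of both. The difference, -0.025, is smaller in size than 0.030, the 95% counting half-width of the difference between the subunits in summed fragments. That width is not the counting error of a difference of medians, which was not worked out. In summed TPM the order of the subunits is the other way, 0.939 for MRPL and 0.906 for MRPS genes. With primary-assembly transcripts only, MRPS12 counted as 1 member at least 1.5-fold higher, although its log2 ratio was -0.22 over all its transcripts, because 28.8 TPM with Dox and all 41.3 TPM without are on its alternate-locus transcripts. At 1.2-fold, also added later, 1 member was higher and 12 were lower. The other alternatives were other pseudocounts and minimum levels, and counting MRPS18A and MRPS30 as large subunit. They moved these values by less than the 95% counting half-width of the summed fragments. No member had its main transcript listed at 0 in either library. No paired analysis was possible because each group holds 1 library. No replicate could be left out for the same reason. Depth limits the order of the members, since the median full width of their 95% counting intervals was 0.28 log2 units.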

Other observations

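Pseudogenes of these genes were nearly silent in the table. Of 77 listed, 2 had a mean of at least 1 TPM, and together the 77 summed to 13.9 TPM with Dox and 10.4 TPM without. MRPS31P4 alone had 10.4 TPM with Dox and 7.20 TPM without. MRPS31, its parent gene, had 25.5 TPM with Dox and 27.9 TPM without, so the pair lay in opposite directions, and reads that match both cannot be assigned with certainty.

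In MRPS27 the share of TPM moved between a pair of coding transcripts. ENST00000261413 had 50.5 TPM with Dox and 39.5 TPM without, with a fragment ratio of 1.24 (1.16 to 1.33), and ENST00000457646 had 32.2 TPM with Dox and 48.9 TPM without, with a fragment ratio of 0.641 (0.597 to 0.689). In MRPL21 the coding transcript ENST00000362034 had 30.8 TPM with Dox and 42.6 TPM without, 74.5% of the gene with Dox and 91.3% without. These transcripts were picked for the size of their shift in share.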
